A study of Mus musculus with 2 samples.

Results

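The genes described here are 9 mouse genes for ion channel subunits of the sperm tail: Catsper1, Catsper2, Catsper3, Catsper4, Catsperb, Catsperd, Catsperg1, Catsperg2 and Kcnu1. They are 9 of 41061 genes with a count, all 9 have a column in both deposited tables, and they were chosen by symbol, with no threshold on a measured value. Testis cells were measured by single-cell RNA sequencing on the BD Rhapsody system, which pairs cells with barcoded beads in microwells, in 2 libraries. The young library came from 2-month-old animals and the aged library from 24-month-old animals, 1 library for each age. Both groups received Avertin anaesthesia, no other treatment or allele is labelled, and the testes were stripped of their capsule, minced, digested with accutase and strained. The labels give neither the strain nor the number of mice pooled in a library. With 1 library per age there is no replicate check and no test, and every interval below covers counting error only.

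CatSper is the calcium channel of the sperm flagellum. Its products assemble on the tail of the maturing spermatid and let calcium in when the sperm becomes hyperactive, and male mice that lack a pore subunit are infertile. Catsper1 to Catsper4 encode the subunits that line the pore, and Catsperb, Catsperd, Catsperg1 and Catsperg2 encode auxiliary subunits beta, delta and gamma that surround it. Kcnu1 encodes Slo3, the potassium channel that sets the membrane voltage of mouse sperm during capacitation.

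In GRCm38 (GENCODE M21), the pore genes lie apart. Catsper1 was annotated at chr19:5335741-5344280 on the plus strand, Catsper2 at chr2:121392631-121413792 on the minus strand, Catsper3 at chr13:55784568-55808998 on the plus strand and Catsper4 at chr4:134211970-134227383 on the minus strand. Of the auxiliary genes, Catsperb was annotated at chr12:101404653-101626009 and Catsperd at chr17:56628143-56664456, both on the plus strand. Catsperg1, at chr7:29181321-29214035, and Catsperg2, at chr7:29697219-29727032, lie on the minus strand with 483183 bases between them. Their longest transcripts were 96.6% identical over 3656 aligned bases, so reads could be shared between these gene copies and each single level of the pair is uncertain. Of the last 400 bases of these transcripts, 123 aligned, at 97.6% identity. Kcnu1 was annotated at chr8:25849623-25937939 on the plus strand. The start of Catsper2 overlaps 18 bases of Pdia3, a protein disulfide isomerase gene on the opposite strand, and the sources used here do not state whether counting used strand.

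The promoters of 4 genes are printed because the transcripts of Catsper2 and Catsperb were high in spermatocyte-like cells and those of Catsper3 and Catsper4 in later cells. RefSeq windows on GRCm38.p6, from 250 bases before to 50 after the annotated start, were matched by symbol for 6 of 9 genes. Sequences run 5′ to 3′ on the gene's strand, and capitals mark CG dinucleotides. The Catsper2 window is chr2:121413743-121414042 (minus), which also holds the start of Pdia3. The Catsperb window is chr12:101404423-101404722 (plus), the Catsper3 window chr13:55784329-55784628 (plus) and the Catsper4 window chr4:134227334-134227633 (minus).
Catsper2: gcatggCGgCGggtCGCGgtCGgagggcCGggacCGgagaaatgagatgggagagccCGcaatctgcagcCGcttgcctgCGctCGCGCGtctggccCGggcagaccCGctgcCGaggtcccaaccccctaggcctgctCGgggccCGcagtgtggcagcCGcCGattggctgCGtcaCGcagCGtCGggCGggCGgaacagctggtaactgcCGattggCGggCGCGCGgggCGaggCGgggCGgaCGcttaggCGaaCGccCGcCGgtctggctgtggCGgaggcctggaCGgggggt
Catsperb: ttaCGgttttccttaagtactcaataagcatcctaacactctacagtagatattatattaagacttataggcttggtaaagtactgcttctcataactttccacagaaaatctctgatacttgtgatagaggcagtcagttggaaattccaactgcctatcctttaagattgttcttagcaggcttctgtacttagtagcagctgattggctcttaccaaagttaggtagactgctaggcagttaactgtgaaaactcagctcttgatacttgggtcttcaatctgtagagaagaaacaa
Catsper3: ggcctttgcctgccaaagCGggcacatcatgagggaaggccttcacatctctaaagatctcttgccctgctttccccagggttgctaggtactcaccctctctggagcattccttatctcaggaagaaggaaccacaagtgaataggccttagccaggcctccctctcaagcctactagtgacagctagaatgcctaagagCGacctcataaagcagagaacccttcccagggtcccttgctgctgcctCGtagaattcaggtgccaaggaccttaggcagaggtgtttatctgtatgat
Catsper4: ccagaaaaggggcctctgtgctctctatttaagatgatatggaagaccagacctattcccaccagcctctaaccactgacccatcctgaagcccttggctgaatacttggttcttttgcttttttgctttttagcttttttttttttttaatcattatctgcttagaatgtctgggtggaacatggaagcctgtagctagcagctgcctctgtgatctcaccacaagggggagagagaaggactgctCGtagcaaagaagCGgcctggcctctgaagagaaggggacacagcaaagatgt

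The Catsper2 window held 41 CG dinucleotides and was 74.7% G or C. Over all 32851 windows the medians were 7 CG dinucleotides and 52.7%. Catsper3 had 3, Catsper4 had 2 and Catsperb had 1. The 2 windows of Catsperd had 29 and 12, and those of Catsperg1 had 8 and 9. Of the genes high in spermatocyte-like cells, Catsperb thus had fewer than Catsper3 and Catsper4, while Catsper2, Catsperd and Catsperg1 had more. On both strands, TGACG, the core of the cyclic AMP response element and contained in its full form TGACGTCA, matched once in the Catsper2 window, at base -77 from the start. TGACG matched 3 times in 1 of the 2 windows of Catsperd, that with 29 CG dinucleotides, and in 20.8% of all windows. The last 50 bases of this Catsperd window matched the start of a GENCODE transcript of the gene at only 18 bases. Those of the other Catsperd window matched at 50. TGACGTCA (1.79% of all windows), GTTGCC (12.5%) and AACNGTC (8.01%) had no match in the windows of the 6 genes. TATAAA matched once, in 1 of the 2 windows of Catsperg1, and in 13.6% of all windows. None of the motifs was found in the windows of Catsper3, Catsper4 or Catsperb.

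Depth differed, with a median of 16582 counts in 2771 cells (young) and of 7488 counts in 6823 cells (aged). Filters and a doublet call kept 2732 young and 5691 aged cells. The libraries share 35 cell indices, and cells were kept apart by library throughout. Although the labels call the material stroma cells, 722 young and 2474 aged cells were spermatocyte-like, 361 and 727 scored highest for round spermatid markers, and 134 and 312 were elongating spermatid-like. Clusters were named from marker genes that included none of the 9, and the 9 genes and all pathway genes below were left out of the clustering. The 10 germ cell stages used below are clusters ordered by Tnp1, a transition protein of late spermatids, relative to Piwil1, a protein of pachytene spermatocytes. Stages 1 and 2 scored highest for pachytene and stages 3 to 5 for late spermatocyte markers, although stages 4 and 5 had 0 of them among their 10 leading genes. Stage 5 also carried early round spermatid markers. Acrv1 stood there at 220 CPM (young) and 209 CPM (aged), against 16.8 and 14.5 CPM at stage 4. Spaca1 stood at 229 and 210 CPM, against 8.81 and 6.17 CPM. Stages 7 and 8 scored highest for early round, stage 9 for late round and stage 10 for elongating spermatid markers. At stage 10 this was near a tie, with a mean z-score of 2.502 against 2.490 for late round markers. Stage 10 kept its name through its 10 leading genes, which held 6 elongating and 2 round spermatid markers. Among the 10 leading genes, elongating markers outnumbered round spermatid markers at stage 8 (2 against 1) and stage 9 (6 against 2), so these stages carry no cell type name. Stages 7 to 9 are summed below under their numbers, and counts over them were also made without stage 9 and with stage 7 alone. Stage 6 scored between late spermatocytes and early round spermatids and stayed unnamed. Levels are CPM (counts per 1000000), taken from the summed cells of a stage or class of 1 library, and each gene is compared with itself across stages. Leydig-like cells (1087 young, 576 aged), the steroid-making cells between the tubules, served as a rough measure of free RNA. Their medians of 6938 (young) and 4752 (aged) counts are below those of stages 1 to 9, so their CPM is not matched in depth. At stage 10 the medians were 13641.5 (young) and 3687 (aged) counts, of which the aged one is below the Leydig-like median. The members stood in Leydig-like cells at 0.867% to 6.11% of their highest stage level. Macrophage-like cells (173 young, 130 aged, medians of 5504 and 2965.5 counts) gave more of some genes. Catsper2 stood there at 43.4 CPM (young) and 85.5 CPM (aged), against 30.1 and 33.9 CPM in Leydig-like cells.

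The 9 genes fell into 2 orders of appearance that were alike in both libraries. Catsper1, Catsper3, Catsper4 and Kcnu1 were near the Leydig-like level or low in stages 1 to 4, came up at stage 5 and were highest at stage 7 or 8. Catsper2 and the 4 auxiliary genes were already present in pachytene cells and lower in stages 7 to 9. Catsper2 thus stood apart from the other 3 pore genes. At stage 10, Catsperd and Catsperg1 were at 21.5% to 57.8% of their highest level and the other 7 at 1.73% to 10.53%. How many of all genes were as low was not computed. Compared with stages 7 to 9, 49.2% (young) and 52.2% (aged) of all tested genes were 2-fold or more lower at stage 10.

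Catsper1, a pore subunit, stood at 6.95, 1.22, 2.46 and 2.67 CPM in stages 1 to 4 of the young library and at 66.3, 143, 248, 288, 153 and 11.6 CPM in stages 5 to 10. In the aged library it stood at 1.98, 2.39, 1.30 and 1.499 CPM and then at 55.2, 163, 238, 253, 161 and 6.48 CPM. Leydig-like cells gave 4.80 CPM (young) and 3.97 CPM (aged). Stages 1 to 4 did not exceed this level beyond their intervals, and whether their counts are free RNA was not tested. Stages 5 to 9 lay far above it. The highest value was at stage 8 in both libraries, with 95% intervals of 269.6 to 307 CPM (young) and 238 to 269.6 CPM (aged). The intervals of stages 7 and 8 were apart in the young library and overlapped in the aged one.

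Catsper3, also a pore subunit, came latest among the 4. It had 0 counts in stage 1 of the young library, which allows up to 5.21 CPM, and 0.612, 1.38 and 1.18 CPM in stages 2 to 4. Stages 5 to 10 of that library gave 14.5, 84.3, 153, 201, 59.6 and 6.48 CPM. The aged library gave 1.81, 0.761, 0.536 and 1.41 CPM and then 11.03, 78.2, 154, 183, 54.4 and 4.32 CPM. Stage 5 therefore held 7.19% (young) and 6.03% (aged) of the highest level, and stage 6 held 41.9% and 42.8%.

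Catsper4, the remaining late pore subunit, ran from 1.49 to 2.45 CPM over stages 1 to 4 of the young library. It then stood at 31.7, 60.9, 95.6, 126, 46.6 and 6.02 CPM in stages 5 to 10. In the aged library it ran from 0.612 to 1.59 CPM and then stood at 31.8, 72.6, 103, 125, 63.8 and 2.16 CPM. Stage 5 held 25.2% (young) and 25.4% (aged) of its highest level, close to the 23.0% and 21.8% of Catsper1 and above Catsper3.

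Kcnu1, the potassium channel, was further along at stage 5 than Catsper1, Catsper3 and Catsper4. Its young levels were 15.6, 4.89, 15.5 and 17.5 CPM in stages 1 to 4 and 113, 149, 205, 201, 113 and 18.1 CPM in stages 5 to 10. Its aged levels were 10.4, 8.59, 14.0 and 16.9 CPM and then 118, 182, 208, 219, 115 and 14.4 CPM. In the young library stages 3 (12.6 to 18.8 CPM) and 4 (15.2 to 19.9 CPM) lay above the Leydig-like level of 6.95 CPM (5.23 to 9.04), so a low level preceded stage 5. In the aged library they overlapped the Leydig-like level of 10.47 CPM (7.01 to 15.04). Per aged cell they gave 0.313 and 0.262 counts, against 0.0503 in the shallower Leydig-like cells. At stage 5 it held 55.0% (young) and 54.0% (aged) of its highest level. The order Kcnu1, then Catsper1 and Catsper4, then Catsper3 at stage 5 held in both libraries under each of 5 other settings. Stage 5 cells had a median of 26382 (young) and 13407.5 (aged) counts, no more than the 29469.5 and 16041.5 of stage 4.

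**Figure D1:**
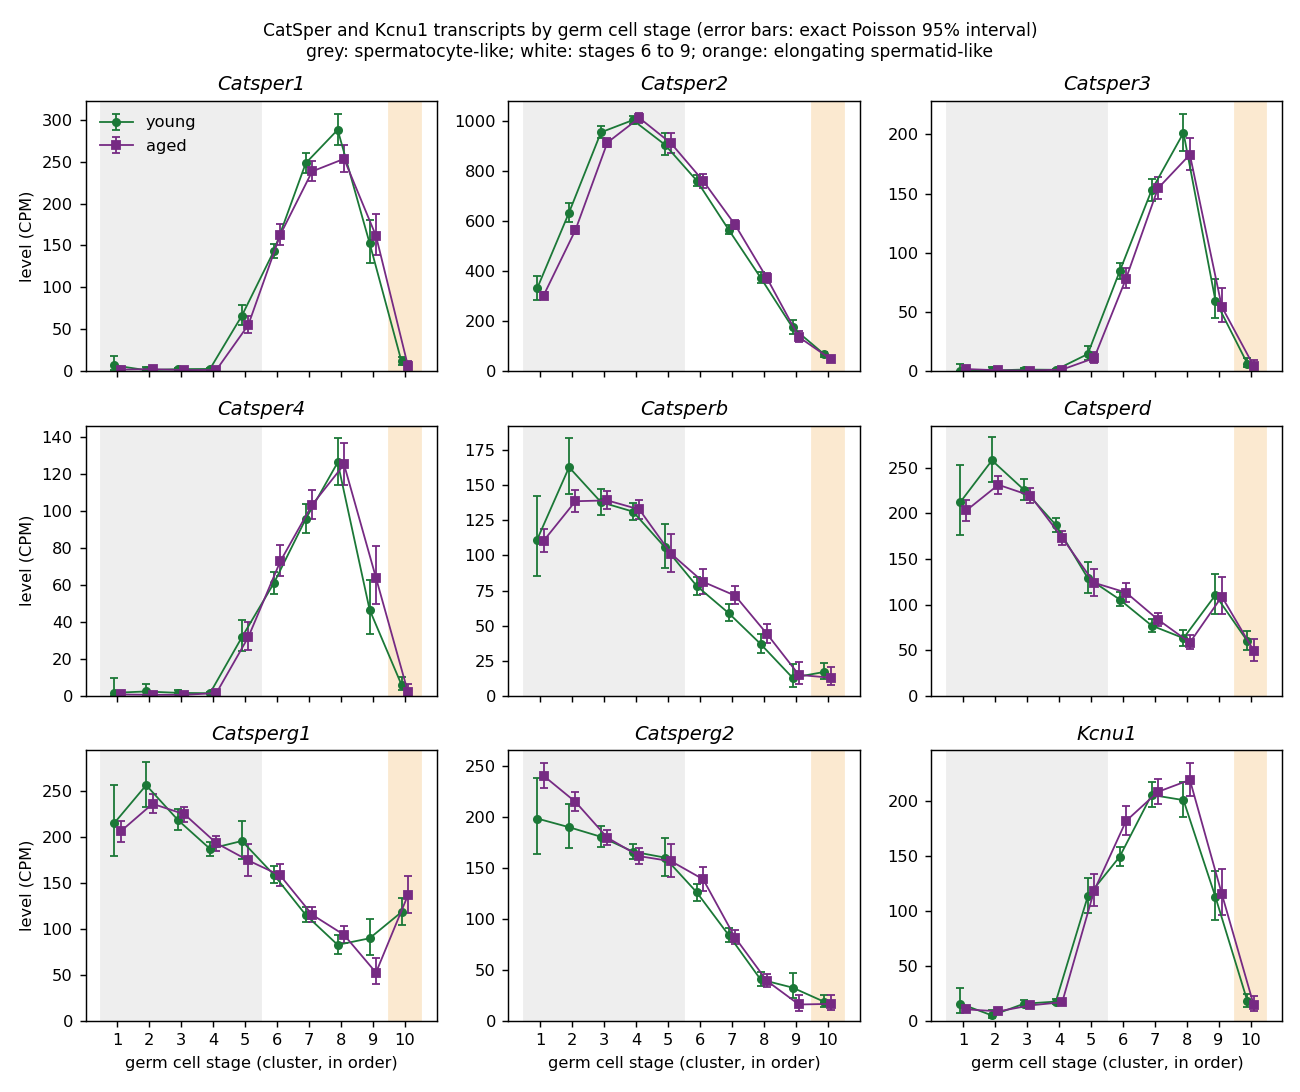
Level of each of the 9 genes (CPM, vertical axis, each panel with its own scale) in germ cell stages 1 to 10 (horizontal axis) of the young (circles) and aged (squares) library, with exact Poisson 95% intervals. Catsper1, Catsper3, Catsper4 and Kcnu1 come up from stage 5 and are highest at stage 7 or 8, while Catsper2 is highest at stage 4 and the auxiliary genes between stages 1 and 3.

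Catsper2, the early pore subunit, stood at 330.2, 633, 953, 1002 and 904 CPM in stages 1 to 5 of the young library and at 760.3, 564, 373, 174 and 66.7 CPM in stages 6 to 10. The aged library gave 302, 563, 912, 1010.4 and 908 CPM and then 759, 584, 371, 136 and 48.2 CPM. The level at stage 1 was already 33.0% (young) and 29.8% (aged) of the highest. The intervals of stage 4, 984 to 1019 CPM (young) and 992 to 1029 CPM (aged), did not overlap those of stage 3 or 5. Stage 10 was at 6.66% and 4.78% of the highest. In the young library this level (56.2 to 78.5 CPM) lay above the Leydig-like 30.1 CPM (26.4 to 34.1), while in the aged library the intervals, 37.4 to 61.3 and 27.4 to 41.5 CPM, overlapped. Macrophage-like cells gave 43.4 CPM (31.9 to 57.7, young), which overlapped stage 10, and 85.5 CPM (62.1 to 115, aged), which lay above it. In a cluster of 74 aged cells with spermatogonia and early spermatocyte markers, which precede stage 1, Catsper2 was at 60.5 CPM (interval 32.2 to 103). This interval overlapped both the Leydig-like and the macrophage-like one of the aged library.

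Catsperb, the beta subunit, had its highest level at stage 2 in the young library (163 CPM, 144 to 183) and at stage 3 in the aged library (139 CPM, 133 to 146). Stages 1 to 5 ran from 106 to 163 CPM (young) and from 101 to 139 CPM (aged). Stages 6 to 10 gave 78.2, 58.9, 37.0, 13.0 and 17.1 CPM (young) and 81.2, 71.4, 44.1, 15.02 and 13.0 CPM (aged). The beta subunit transcript was thus lower at each stage from 6 to 9.

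Catsperd, the delta subunit, was highest at stage 2, at 258 CPM (young) and 231 CPM (aged). Between stages 5 and 9 it was lowest at stage 8, at 63.4 CPM (54.9 to 72.7) and 58.5 CPM (51.2 to 66.6). At stage 9 it stood at 111 CPM (90.1 to 134) and 109 CPM (89.97 to 131). The intervals of stages 8 and 9 did not overlap in either library, so stage 9 cells carried more Catsperd per count than the stage before. Stage 9 rests on 33 young and 69 aged cells. Stage 10 was back at 60.2 and 49.7 CPM.

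Catsperg1 and Catsperg2, the copies of the gamma subunit gene, differed at the end of the series. Catsperg1 was highest at stage 2, at 257 CPM (young) and 237 CPM (aged), and lowest at stage 8 in the young (82.8 CPM) and stage 9 in the aged library (52.6 CPM). At stage 10 Catsperg1 stood at 119 CPM (104 to 134) and 137 CPM (118 to 158), 46.1% and 57.8% of its highest level. Catsperg2 was highest at stage 1, at 198 CPM (163 to 238) and 240.0 CPM (228 to 253), and at stage 10 stood at 18.5 and 16.6 CPM, 9.35% and 6.90% of its highest. How the counting shared out reads of these near-identical copies is not given, and its part in the difference was not tested.

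**Figure D2:**
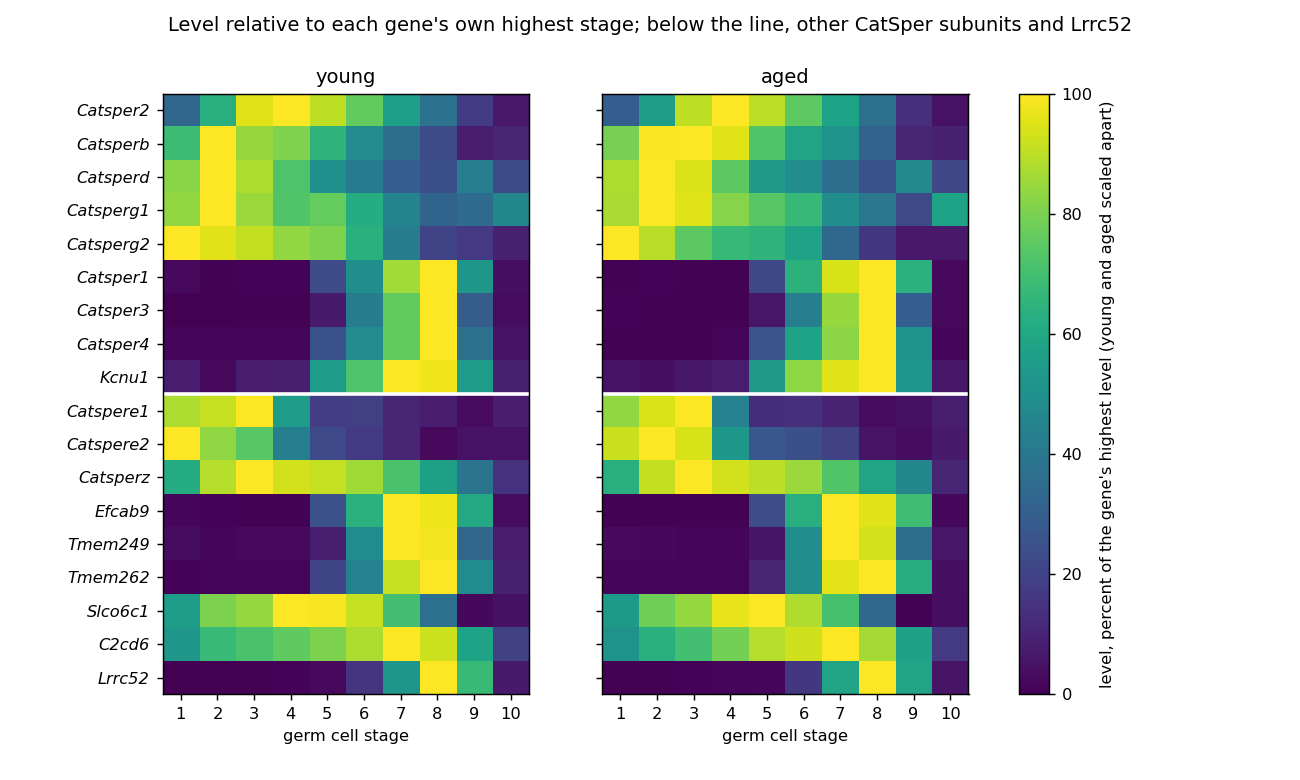
Level as percent of the gene's own highest stage level (colour, 0 to 100) for the 9 genes above the white line and the other CatSper subunits and Lrrc52 below it, by germ cell stage (columns) in the young (left) and aged (right) library. Kcnu1 is at 55.0% and 54.0% at stage 5, where Catsper3 is at 7.19% and 6.03%.

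Per cell, transcripts of the whole pore coincided most often at stages 7 and 8. Counts of all 4 pore genes were found together in 0 of 412 young and 0 of 734 aged cells of stage 4. At stage 5 they were found in 17.5% (young) and 4.07% (aged) of cells, at stage 6 in 71.2% and 40.1%, at stage 7 in 89.4% and 69.9%, at stage 8 in 92.9% and 65.6%, and at stage 9 in 42.4% and 27.5%. Counts of all 4 auxiliary genes were found together in 57.3% of the aged cells at stage 1, 81.8% at stage 2, 88.7% at stage 3 and 63.2% at stage 4, against 11.5% at stage 8. In the young library the share was 91.8% or more in each of stages 1 to 4 and 35.7% at stage 8. Depth moved with the shares of the early stages, with aged medians of 13186 counts at stage 1, 22266 at stage 3 and 16041.5 at stage 4, and its part was not tested. All 9 genes were found together in 56.3% (young) and 19.5% (aged) of stage 6 cells, 55.6% and 20.7% of stage 7 cells and 33.9% and 9.92% of stage 8 cells. No Leydig-like cell held all 4 pore genes. The libraries differ in depth, with a median of 26557 (young) and 16359.5 (aged) counts at stage 8, so shares are not compared between ages, nor between stages of unlike depth.

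At equal depth, with each cell thinned to 2000 counts, the same 2 patterns appeared. Catsper1 was found in 1.80% of young spermatocyte-like cells and 40.7% of cells of stages 7 to 9, and in 1.09% and 37.9% of the aged cells. Before thinning these shares were 13.9% and 98.9% (young) and 5.62% and 88.7% (aged). Catsper2 was found in 81.3% of young spermatocyte-like cells, 60.9% of those of stages 7 to 9 and 6.72% of elongating spermatid-like cells, and in 72.6%, 59.4% and 4.72% of the aged cells. Catsperg1 was found in 30.9%, 18.6% and 16.4% of the cells of these classes (young) and 33.1%, 19.5% and 24.5% (aged). Leydig-like cells, which should lack these transcripts, gave 0.920% (young) and 0.382% (aged) for Catsper1, 5.43% and 6.30% for Catsper2, and 3.13% and 3.05% for Catsperg1. At this depth the elongating shares of Catsper2 (3.12% to 12.4% young, 2.38% to 8.29% aged) did not differ detectably from the Leydig-like ones, although its young CPM did, and those of Catsperg1 lay above them. Thinning left out 90 aged spermatocyte-like cells, 33 of stages 7 to 9, 79 elongating and 52 Leydig-like cells and no young cell.

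**Figure D3:**
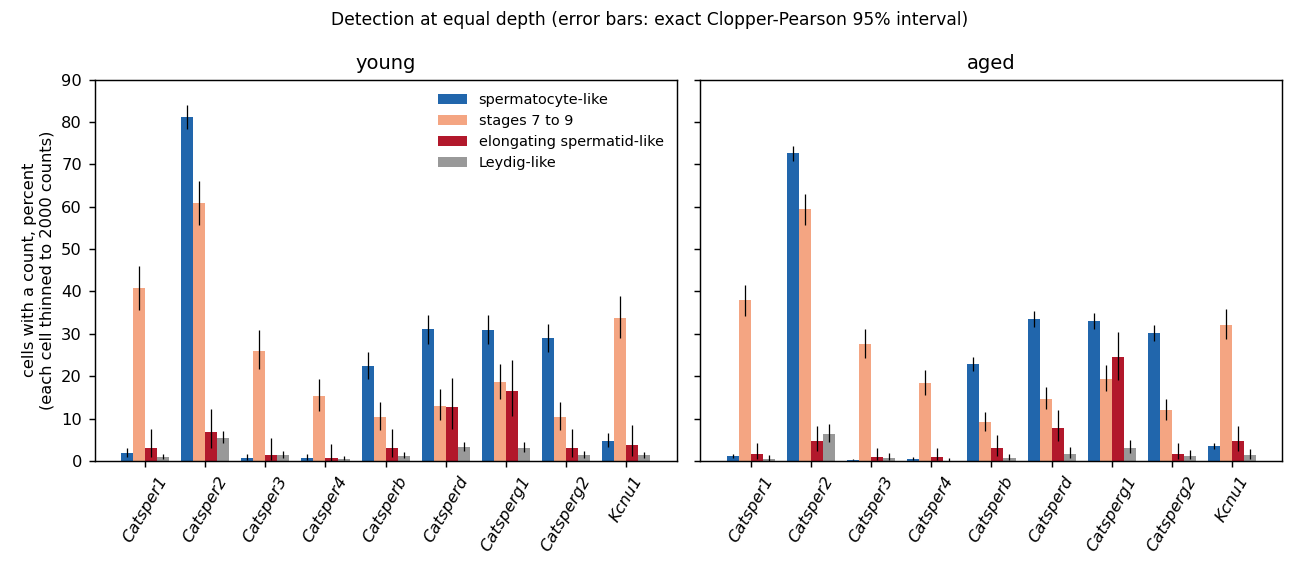
Share of cells with at least 1 count of each gene after thinning each cell to 2000 counts (percent, vertical axis), by cell class (bar colour), in the young and aged library, with exact Clopper-Pearson 95% intervals. Grey bars are Leydig-like cells; Catsper1 is at 40.7% in the young cells of stages 7 to 9 and 0.920% in young Leydig-like cells.

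Summed over classes, 4 of the 9 genes were 2-fold or more higher in stages 7 to 9 than in spermatocyte-like cells in each library, where 33.7% (young) and 32.9% (aged) of all tested genes were so. Catsper3 was 72.6-fold higher (54.9 to 97.9, young) and 98.4-fold higher (77.0 to 128, aged), and from 7.43-fold to 100.01-fold and from 18.9-fold to 128-fold over the other settings, lowest with called doublets kept. Catsper1 was 33.4-fold (28.7 to 39.2) and 51.4-fold (44.4 to 59.7) higher, Catsper4 25.4-fold and 41.2-fold, and Kcnu1 8.39-fold (7.63 to 9.23) and 10.9-fold (10.02 to 11.8). The spermatocyte class levels of the 3 pore genes lie near the Leydig-like levels, and the folds vary beyond their counting intervals. Over the settings Catsper1 ran from 6.46-fold to 90.4-fold (young) and from 13.2-fold to 370-fold (aged), and Catsper4 from 5.96-fold to 68.3-fold and from 12.2-fold to 98.2-fold. Kcnu1 ran from 3.74-fold to 11.5-fold and from 6.15-fold to 23.4-fold. These 4 genes were also the higher ones in each library without stage 9 and with stage 7 alone. Lower by 2-fold or more were 3 genes in the young library (Catsperb 2.75-fold, Catsperd 2.63-fold, Catsperg2 2.59-fold), beside 29.9% of all genes. In the aged library 4 were so (Catsperb 2.30-fold, Catsperd 2.61-fold, Catsperg1 2.09-fold, Catsperg2 3.10-fold), beside 33.4%. Catsper2 was 1.98-fold (young) and 1.64-fold (aged) lower. The median log2 ratio of the 9 genes was -0.97 (young) and -0.72 (aged), and that of all tested genes -0.17 and -0.24. Scaling by the median ratio shifts all ratios up by 0.43 (young) and 0.39 (aged) on the log2 scale and leaves 4 genes higher and 1 lower in each library.

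In elongating spermatid-like cells (stage 10), compared with stages 7 to 9, 7 of the 9 genes were 2-fold or more lower in each library, where 49.2% (young) and 52.2% (aged) of all tested genes were so. None was 2-fold higher, beside 12.9% and 12.4% of all genes. The late pore genes differed most, with Catsper3 24.6-fold lower (14.6 to 45.0, young) and 35.8-fold lower (16.4 to 97.8, aged), and Catsper1 21.8-fold and 36.5-fold lower. Catsper4 was 16.7-fold (9.72 to 31.5) and 49.5-fold (16.9 to 240) lower, on 13 and 3 counts at stage 10. Catsper3 had 14 and 6 counts there, and its 6.48 and 4.32 CPM lay near the Leydig-like 4.93 and 3.61 CPM. The aged Catsper1 interval (2.96 to 12.3 CPM) overlapped the Leydig-like one (1.98 to 7.11), while the young level lay above it. The young Catsper1 level did overlap that of macrophage-like cells, 9.23 CPM (4.42 to 17.0). The size of these folds is therefore uncertain. Catsperd was 1.26-fold (young) and 1.56-fold (aged) lower, and Catsperg1 was 1.15-fold higher (0.997 to 1.31, young) and 1.34-fold higher (1.14 to 1.56, aged). Protamine and transition protein transcripts made up 12.5% (young) and 12.3% (aged) of the counts at stage 10, against 0.574% and 0.544% at stage 8, which takes a share of every other gene's CPM.

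Between the ages, stages 7 to 9 gave the closest match of the 3 classes. None of the 9 genes was 1.5-fold higher or lower in the aged library, beside 7.36% of all tested genes that were higher and 8.06% that were lower. The ratios, aged over young, ran from 0.921 (Catsperg2, 0.828 to 1.02) to 1.18 (Catsperb, 1.05 to 1.33). Catsper1 stood at 252 CPM (young) and 236 CPM (aged), Catsper2 at 473 and 471 CPM, Catsper3 at 159 and 155 CPM, Catsper4 at 100.5 and 107 CPM, and Kcnu1 at 196 and 203 CPM. The median log2 ratio was -0.0063 for the 9 genes and 0.0036 for all genes.

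In spermatocyte-like cells 0 of the 9 genes were 1.5-fold higher in the aged library, beside 16.2% of all tested genes, and 2 were lower, beside 14.8%. The lower count was 4 with called doublets kept and 0 with the mean over cells. The 2 called genes were Catsper1, at 7.53 CPM (young) and 4.60 CPM (aged), and Catsper4, at 3.96 and 2.60 CPM. Both class levels lie near the Leydig-like levels of 4.80 and 3.97 CPM for Catsper1 and 2.53 and 1.08 CPM for Catsper4. Stage 5 alone held 119 of 175 (young) and 125 of 193 (aged) Catsper1 counts, and 57 of 92 and 72 of 109 Catsper4 counts. Within stage 5 the ratio was 0.832 (0.642 to 1.08) for Catsper1 and 1.001 (0.697 to 1.44) for Catsper4. At stage 4, on 34 (young) and 17 (aged) counts, the Catsper1 ratio was 0.560 (0.294 to 1.03). The part of stage makeup in these calls was not tested. Prm1, a protamine of late spermatids, stood in stage 4 spermatocytes at 148 CPM (young) and 53.9 CPM (aged). With the Leydig-like level subtracted, the log2 ratio between the ages was -2.12 for Catsper1 and 0.079 for Catsper4, so the Catsper4 call does not hold there. Catsper2 was at 938 CPM (young) and 774 CPM (aged), a ratio of 0.825 (0.811 to 0.839). The aged class held more early cells, with 983 of 2474 cells in stages 1 and 2 against 73 of 722 young cells. Within stages 3 to 8 the Catsper2 ratio ran from 0.957 to 1.04. It was 0.913 (0.786 to 1.07) at stage 1 and 0.890 (0.832 to 0.952) at stage 2, which rest on 24 and 49 young cells. Later it was 0.780 (0.619 to 0.983) at stage 9 and 0.724 (0.533 to 0.973) at stage 10. Whether stage makeup bears on the Catsper2 ratio of the class was not tested. The median log2 ratio was -0.28 for the 9 genes and -0.01 for all genes.

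In elongating spermatid-like cells 0 genes were 1.5-fold higher in the aged library, beside 10.9% of all tested genes, and 2 were lower, beside 16.9%. The count was 1 to 5 under the alternatives, and with the class taken from each cell's score 3 genes were higher and 1 lower. The called genes were Catsper1, with 25 (young) and 9 (aged) counts (ratio 0.560, 0.230 to 1.24), and Catsper4, with 13 and 3 counts (0.359, 0.0656 to 1.31). Both intervals include 1, so no difference was detectable at this depth, and over the settings the ratio of Catsper1 ran from 0.370 to 1.55 and that of Catsper3 from 0.456 to 2.85. Catsperg1, the gene with the most counts there, had 256 and 190 counts and a ratio of 1.15 (0.952 to 1.40). The median log2 ratio was -0.38 for the 9 genes and -0.07 for all genes. Elongating spermatid-like cells had medians of 13641.5 (young) and 3687 (aged) counts, and the part of depth in these ratios was not tested. Over the stages with 50 or more cells in both libraries and 10% or more of the gene's highest level, 47 ratios of the 9 genes ran from 0.825 to 1.22. The interval lay above 1 for 4 of these ratios and below 1 for 3. At stage 6 Kcnu1 was higher in the aged library by 1.22-fold (1.11 to 1.34), Catsper4 by 1.19-fold (1.03 to 1.38) and Catsper1 by 1.13-fold (1.03 to 1.25), while the ratio of Catsper3 was 0.928 (0.808 to 1.06). At stage 8 the Catsper1 ratio was 0.880 (0.803 to 0.964) and that of Kcnu1 1.09 (0.984 to 1.21). The remaining intervals without 1 were those of Catsperb at stage 7 (1.21, 1.06 to 1.39), Catsper2 at stage 3 (0.957, 0.928 to 0.987) and Catsperd at stage 4 (0.924, 0.870 to 0.982). These differences are under 1.5-fold and have no replicate behind them. Outside these 47, at stage 9 with 33 young cells, the ratio was 0.584 (0.409 to 0.830) for Catsperg1 and 0.491 (0.254 to 0.919) for Catsperg2, over 1.5-fold lower in the aged library.

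**Figure D4:**
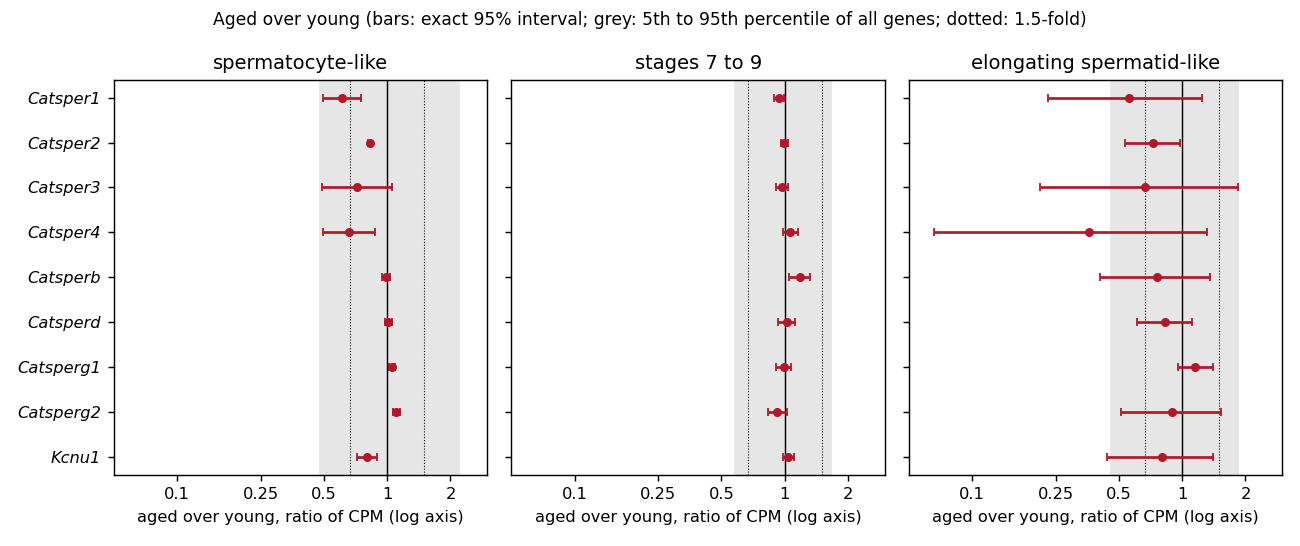
Ratio of CPM, aged over young, of each gene in the 3 germ cell classes (horizontal log axis) with exact 95% intervals; the grey band spans the 5th to 95th percentile of all tested genes and dotted lines mark 1.5-fold. In stages 7 to 9 all 9 points lie between 0.921 and 1.18.

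Of 8 other known CatSper subunits, 3 were 2-fold or more higher in stages 7 to 9 than in spermatocyte-like cells and 2 lower, in each library, shares near the 33.7% and 32.9% of all genes that were higher and the 29.9% and 33.4% that were lower. Efcab9, the calcium sensor of the channel, was 38.7-fold (young) and 52.8-fold (aged) higher, Tmem249, a membrane subunit, 30.3-fold and 48.0-fold, and Tmem262, another membrane subunit, 30.6-fold and 45.8-fold. Catspere2, an epsilon subunit gene, was 7.09-fold and 6.14-fold lower. Catspere1, annotated as an unprocessed pseudogene whose transcript is 97.7% identical to that of Catspere2 over 429 bases, was 7.54-fold and 11.3-fold lower. Catsperz, the partner of Efcab9 in the channel, was highest at stage 3, at 1261 CPM (young) and 1130 CPM (aged), and did not share the stages of Efcab9. Slco6c1, a transporter found in the complex, was highest at stage 4 (359 CPM, young) or 5 (395 CPM, aged), and C2cd6, which helps to place the channel in the flagellum, at stage 7 (771 and 779 CPM). Median log2 ratios of the list were -0.10 (young) and -0.03 (aged).

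Lrrc52, the auxiliary subunit of Slo3, came later than Kcnu1. It was highest at stage 8, at 172 CPM (young) and 162 CPM (aged), and at stage 5 stood at 2.59% and 1.90% of this, where Kcnu1 stood at 55.0% and 54.0%. Kcnk5, a background potassium channel, was also highest at stage 8, at 26.7 CPM in both libraries. All 4 genes of the list of potassium channel partners and relatives were 2-fold or more higher in stages 7 to 9 in each library, beside 33.7% and 32.9% of all genes, but Lrrc26 and Kcnma1 stayed under 10 CPM in every stage.

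Among 12 genes of sperm ion transport, 8 (young) and 9 (aged) had 10 or more counts, of which 4 were higher and 3 lower in stages 7 to 9 in each library, beside 33.7% and 32.9% higher and 29.9% and 33.4% lower over all genes. Atp1a4, the sodium pump subunit specific to sperm, was 75.2-fold and 155-fold higher, and its partner Atp1b3 8.15-fold and 6.42-fold. Both were highest at stage 10, where each of the 9 channel genes was below its highest level. Cftr, a chloride channel, was 3.05-fold and 3.88-fold higher. Atp2b4, a calcium pump, was 6.71-fold and 7.89-fold lower, and Slc26a8, an anion transporter, 2.04-fold and 2.02-fold lower. Slc9c1, the sperm sodium-proton exchanger, was 2.10-fold (young) and 1.85-fold (aged) lower, and Slc9b1, a related exchanger, 1.97-fold and 1.86-fold lower. Car4, the remaining higher gene, and Trpv4, a lower gene of the aged library, stayed under 10 CPM.

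Of 11 genes of capacitation signalling, 6 were higher and 1 lower in stages 7 to 9 in each library, beside 33.7% and 32.9% higher and 29.9% and 33.4% lower over all genes. Akap4 and Akap3, anchoring proteins of the fibrous sheath, were 57.2-fold and 34.3-fold (young) and 101-fold and 43.3-fold (aged) higher. Cabyr, a calcium-binding sheath protein, was 55.8-fold and 77.8-fold higher, Plcz1, the phospholipase that activates the egg, 27.2-fold and 42.9-fold, Abhd2, a lipase, 5.62-fold and 6.78-fold, and Adcy10, the soluble adenylyl cyclase, 2.48-fold and 2.94-fold. Pkdrej, a polycystin relative, was 2.94-fold and 2.54-fold lower. Prkaca, the catalytic subunit of protein kinase A, was 1.85-fold and 1.66-fold lower, and the sperm calcineurin genes Ppp3r2 and Ppp3cc 1.95-fold and 1.84-fold and 1.20-fold and 1.12-fold lower. Akap4 and Plcz1 were highest at stage 10.

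Between the ages, Catsperz ran from 0.634 to 0.924 over 7 stages and Ppp3r2 from 0.781 to 0.919, with the interval below 1 in each of the 7 stages for both. In stages 7 to 9 0 of the 8 other CatSper subunits were 1.5-fold apart between the ages, beside 7.36% of all tested genes that were higher and 8.06% that were lower. In elongating spermatid-like cells 3 of 8 were lower in the aged library, beside 16.9% of all genes. These were Catsperz (0.634, 0.524 to 0.763), Efcab9 (0.630, 0.336 to 1.13) and Tmem262 (0.503, 0.230 to 1.02), of which the last 2 have intervals that include 1.

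The genes with the most similar stage profiles are given as a description, over 7 young and 10 aged stages with 50 or more cells and 8767 genes, by Pearson correlation of log2(CPM + 1). The stages of a library share its depth and its preparation. Catsper1 was closest to Efcab9 (0.998 young, 0.999 aged), Tex24 (0.998 in both) and Zfp462 (0.999 and 0.998). Catsper2 was closest to 1700051A21Rik (0.999 and 0.995), Pom121l12 (0.997 and 0.994) and 4930544G11Rik (0.992 and 0.994). Kcnu1 was closest to Gm4868 (0.992 in both), Ccdc81 (0.992 and 0.995) and A930024E05Rik (0.991 and 0.993). The mean profile of all 9 genes was closest to 1700012B09Rik, 4930550C14Rik, Fbxo36, Maats1 and Mgst3, with values from 0.971 to 0.994, although this mean joins 2 unlike patterns. Catsper1 and Catsper4 correlated at 0.999 (young) and 0.993 (aged), and Catsper1 and Catsper2 at -0.04 and -0.06.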

How the data were processed

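The authors deposited 1 table of whole-number counts per gene and cell for each library, with no normalization. Per its file header, the aged table came from version 1.7.1 of the BD WTA Multiplex Rhapsody Analysis Pipeline with STAR 2.5.2b. Per the submitters' processing notes, Cell Ranger 2.11 and mm10 were used. The young table has no such header, so whether both tables were made the same way is not known. The lowest cell total was 3215 (young) and 186 (aged), and a difference in processing would bear on every ratio between the ages. Neither the calling of cells nor whether counts are molecules or reads is given in the sources used here. Of the gene columns, 36245 occur in both tables, and a gene lacking one was set to 0.

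The cell filter asked for at least 500 counts, at least 200 genes and no more than 25% of counts from mitochondrial genes. Doublets called per library by Scrublet in scanpy 1.11.5 (38 young, 121 aged) were left out. Each cell was scaled to 10000, and 2000 variable genes, 40 principal components, 15 neighbours and Leiden clustering (leidenalg 0.10.2, resolution 1, seed 1) were used. Clusters were named by the mean z-score of fixed markers, with 3 or more markers up, a mean of 0.5 or more and a gap of 0.15 to the next class. The gap was waived where 3 own markers were among the 10 leading genes, and clusters far shallower than their library needed 2. These limits, unlike the markers, were set with the files at hand. Unnamed cells were 250 young and 1423 aged. Python 3.11.15 with scipy 1.17.1 gave exact Poisson, conditional binomial and Clopper-Pearson 95% intervals; ratios needed 10 counts, and log2 ratios had 0.5 added to each count. The ratio intervals held the true ratio for 95.2% to 95.5% of genes in simulated Poisson counts, the model that they assume. The simulation had no variation between cells or libraries, so it cannot show how the intervals fare with it. The floor of a count of 0 was 3 counts.

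The 9 genes and the gene lists were chosen with earlier results of these data known. Pathway genes named had 10 or more CPM in a germ cell class of either library. Genes with similar profiles had 20 or more CPM in the highest stage of both libraries. Alternatives to doublet removal, cell minimum, resolution, class naming, averaging, scaling, protamine counts and free RNA were run 1 at a time. Those for stage 5 and for the makeup of stages 7 to 9 were chosen after seeing the data.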

Additional observations from a re-analysis of the deposited data

Results flagged for a closer look

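Signals outside the stages and classes came from 2 clusters of aged cells. A cluster of 554 aged and 0 young cells had its highest score for pachytene spermatocyte markers, a median of 948.5 counts and 19.5% mitochondrially encoded counts. In it Catsperb stood at 303.8 CPM (260 to 353), Catsperd at 549 CPM (489 to 614), Catsperg1 at 892 CPM (815 to 973) and Catsperg2 at 668 CPM (602 to 739), each above that gene's highest aged stage (139, 231, 237 and 240.0 CPM). Catsper2 was at 581 CPM there, below its highest stage, and Catsper1, Catsper3, Catsper4 and Kcnu1 were at 1.78 to 16.0 CPM. The median depth lies under the lowest total of any young cell, 3215. A second cluster, of 389 aged and 3 young cells with a median of 1503 counts in the aged library, scored highest for early round spermatid markers. In it Catsper4 stood at 168 CPM (139 to 201), above its highest aged stage of 125 CPM (114 to 137). Whether low depth bears on these levels was not tested.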

How the results depend on the processing

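In each library 4 genes were 2-fold higher in stages 7 to 9 than in spermatocyte-like cells under 10 of 11 alternatives, 2 of them the sum without stage 9 and stage 7 alone; with the Leydig-like level subtracted, 3 of the 8 genes with a value were. In the aged library the count of genes 2-fold apart went from 8 to 5 with scaling by the median ratio. In spermatocyte-like cells the count of genes 1.5-fold apart between the ages went from 2 to 4 with doublets kept and to 0 with the mean over cells. In elongating spermatid-like cells it went from 2 to 1 at resolution 2, to 4 with the class from each cell's score, to 4 with the mean over cells and to 5 with the Leydig-like level subtracted. In stages 7 to 9 it was 0 under the 11 alternatives. The log2 ratio of Catsper1 between the ages reversed in elongating spermatid-like cells to 0.63 with the class from each cell's score. That of Catsper4 in spermatocyte-like cells reversed to 0.079 with the Leydig-like level subtracted. The cause was not tested in either. The folds of the 4 higher genes varied by over 1.5 times, with Catsper1 from 6.46 to 90.4 (young) and from 13.2 to 370 (aged), lowest with called doublets kept. Of 259 single ratios between the ages under the alternatives, 33 moved beyond their intervals and 2 reversed. Of 394 single ratios between classes, 142 moved beyond their intervals and 0 reversed, and 50 of 54 shares of cells with a count moved with thinning. The alternatives for stage 5 and for stages 7 to 9 were chosen after seeing the data. No paired analysis was possible because each age has 1 library.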
